A study of Mus musculus with 24 samples.

Results

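Open chromatin of the newborn mouse lens was mapped by FAIRE, and 93506 of the 104385 autosomal FAIRE regions (89.6%) overlapped none of the 6 ChIP lists of the same tissue by 1 bp or more. These 93506 regions, called unmarked regions here, covered 33.2 Mb, which was 88.2% of the bases in autosomal FAIRE regions. They were chosen by the measured positions of the intervals in the lens lists of Pax6, H3K4me1, H3K4me3, H3K27ac, H3K27me3 and RNA polymerase II. H3K4me1 kept 5908 FAIRE regions out (3860 of them by this list alone), H3K4me3 2543 (810 alone), H3K27ac 2469 (236 alone), H3K27me3 2448 (1972 alone), Pax6 1385 (391 alone) and RNA polymerase II 638 (80 alone). The 10879 regions that overlapped at least 1 of these lists are called marked regions. "Unmarked" means only that the authors listed no lens interval there, and not that the factor or mark was absent. All tissue came from CD-1 mice, with no mutation or treatment in the labels, and lens was taken at P1 and forebrain at E12.5. The lens FAIRE library and each lens ChIP library was a single sample, as was each forebrain library except Pax6, whose 2 libraries were given as 1 peak list. With 1 list a group no test across samples was possible, so all intervals below are 95% intervals for counting error within a list. Intervals of a ratio to moved positions take the moved share as fixed, so its own error is left out. Tissue and age cannot be told apart where lens regions are set against forebrain lists. The labels do not give the number of mice pooled for a library.

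In FAIRE, crosslinked and sonicated chromatin is extracted with phenol and chloroform, and DNA held by few nucleosomes stays in the aqueous phase. Open chromatin of this kind is known from active promoters, where H3K4me3 and RNA polymerase II are found, from enhancers, which carry H3K4me1 and, when active, H3K27ac, and from insulators. H3K27me3 is laid down by Polycomb complexes over silenced developmental genes. Pax6 is a transcription factor with a paired domain and a homeodomain that both the lens and the forebrain need for their development. A FAIRE list holds no expression values, so the lens label of this library could not be checked against marker genes.

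Unmarked regions were short. Their median width was 260 bp (interval 258 to 262), with quartiles of 165 and 479 bp and a longest region of 4562 bp. Marked regions had a median of 305 bp (299 to 312), quartiles of 184 and 549 bp and a longest region of 5373 bp. A wider region meets a list more readily, so this order is partly fixed by the way the regions were chosen. The shortest width in the list, 132 bp, was shared by 7363 unmarked regions (7.87%) and 592 marked regions (5.44%). Widths of 1000 bp or more were found in 2584 unmarked (2.76%) and 513 marked regions (4.72%), and of 2000 bp or more in 73 and 16.

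The widest unmarked region lay at chr1:24618402-24622963 (mm9, as all positions here), with the nearest lens interval, an H3K27me3 island, 20.6 kb away. The next lay at chr13:120279922-120283620 (3699 bp), 2.02 kb from a lens H3K4me3 peak. The third lay at chr5:15113561-15116863 (3303 bp), 108.6 kb from a lens RNA polymerase II peak. None of these 3 overlapped a forebrain list, as was so for 92.4% of all unmarked regions. Repeats and mappability were not analysed here, so whether the reads behind these or other unmarked regions belong to 1 place in the genome was not tested.

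Unmarked regions were spread along the chromosomes at intervals of a few kilobases. The gap to the nearest other unmarked region had a median of 6090.5 bp (6039 to 6145) and quartiles of 2654 and 13685 bp, and 66.2% had another unmarked region within 10 kb. No 2 unmarked regions lay less than 536 bp apart. The farthest gap was 0.639 Mb. Marked regions lay farther from each other, with a median gap of 31740 bp (30324 to 33003), but they were also far fewer (10879 against 93506). To the nearest FAIRE region of any kind, the median gap was 5747 bp for unmarked and 7365 bp for marked regions. The 2 kinds of region were not mixed evenly. Among unmarked regions the nearest FAIRE region of any kind was also unmarked for 92.6%, and among marked regions it was unmarked for 59.7%, against 89.6% of all regions. Unmarked regions formed 7149 runs without a marked region between them. Of these, 374 runs held 50 or more regions and together contained 42533 regions. The longest run had 450 unmarked regions over 5.04 Mb at chr1:25961628-31003094. The next had 393 over 3.85 Mb at chr17:59171448-63022925 and 372 over 3.66 Mb at chr1:141888981-145546184.

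**Figure D1:**
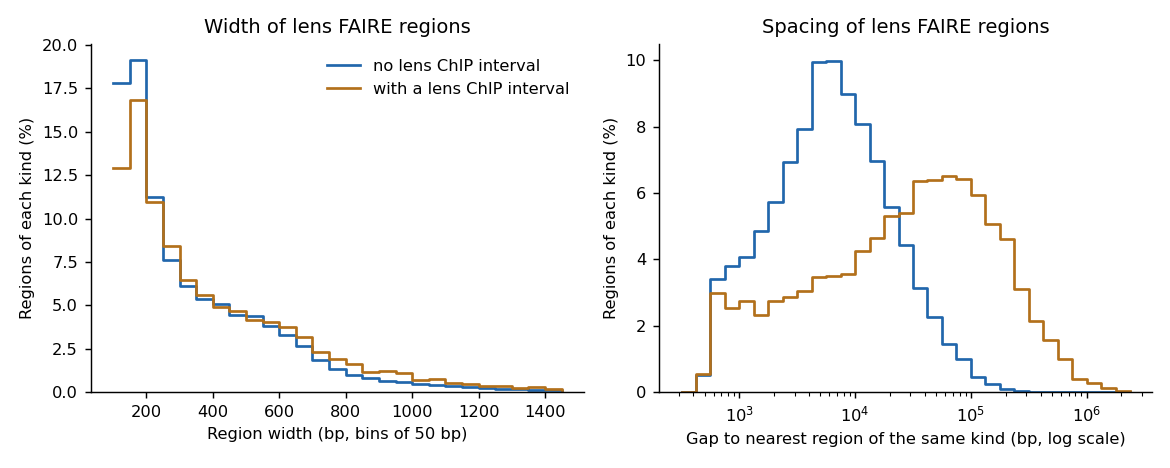
Distribution of region width (left, percent of regions of each kind per 50 bp, drawn to 1500 bp) and of the gap to the nearest region of the same kind (right, log scale in bp), for unmarked regions (blue) and marked regions (brown). Unmarked regions are somewhat narrower (median 260 bp against 305 bp). They lie closer to their own kind (median gap 6090.5 bp against 31740 bp), but they are also far more numerous.

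Unmarked regions were densest where lens H3K4me3 peaks were sparse. Per autosome they numbered between 21.6 per Mb on chromosome 7 and 50.6 per Mb on chromosome 16. Chromosome 3 (49.7 per Mb) and chromosome 10 (48.0) came next at the high end, and chromosome 11 (26.6) and chromosome 9 (29.6) at the low end. Chromosome 11 had the most lens H3K4me3 peaks per Mb (10.5) and chromosome 1 the fewest (4.65). Over the 19 autosomes the density of unmarked regions ran against that of lens H3K4me3 peaks, with Pearson's r of -0.73 and Spearman's rho of -0.75. For marked regions the same values were 0.71 and 0.63. By choice, however, marked regions include those at H3K4me3 peaks and unmarked regions leave them out. Unmarked regions made up 82.2% (chromosome 11) to 93.2% (chromosome 16) of the FAIRE regions of an autosome. Whether their order differs from that of all FAIRE regions was not tested. The points share all libraries, and base composition and mappability of the chromosomes were not analysed here.

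The same order was seen in windows of 1 Mb. The 415 windows with 0 lens H3K4me3 peaks held a median of 66 unmarked regions (quartiles 35.5 and 90.0) and 0 marked regions. Windows with 1 to 4 peaks (818 windows) held a median of 37 unmarked regions, those with 5 to 14 peaks (903 windows) held 27, and those with 15 or more (280 windows) held 18. The median of marked regions went the other way, with 3, 5 and 8 in these 3 classes. The most crowded 100 kb window was chr5:14900001-15000000, with 36 unmarked regions of 132 to 2351 bp and 0 marked regions, more than the 31 of the median 1 Mb window. The windows chr11:3000001-3100000 and chr8:19700001-19800000 followed with 34 and 31 unmarked regions and 0 and 2 marked ones. No unmarked region in these 3 windows overlapped a forebrain list, but 92.4% of all unmarked regions overlapped none either.

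**Figure D2:**
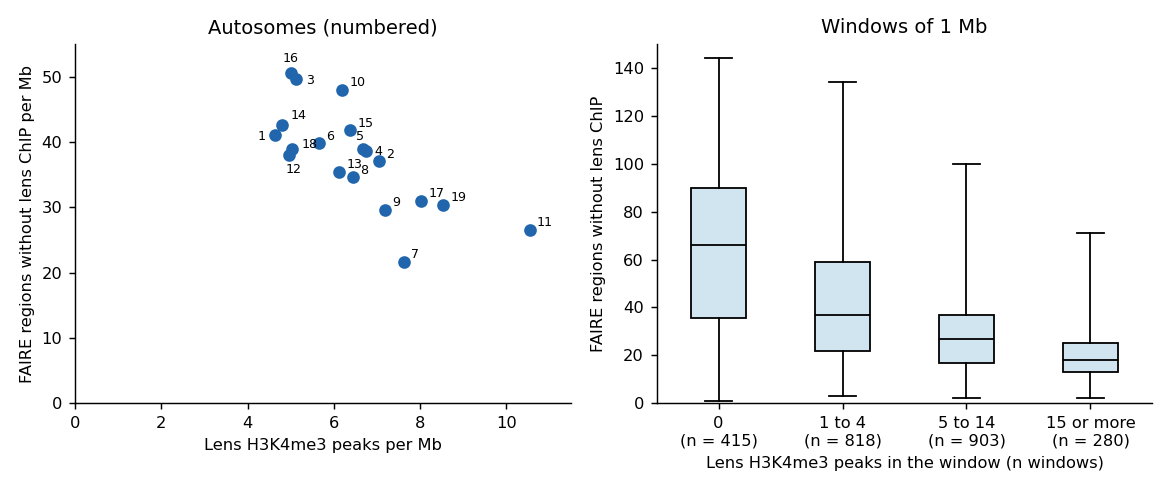
Left, unmarked regions per Mb (y axis) against lens H3K4me3 peaks per Mb (x axis) for the 19 autosomes, each point labelled with its number. Right, unmarked regions per 1 Mb window by the number of lens H3K4me3 peaks in it (line, median; box, quartiles; whiskers, lowest and highest window). The median falls from 66 in windows without a lens H3K4me3 peak to 18 in windows with 15 or more.

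Most unmarked regions lay far from any lens interval. The median distance to the nearest interval of the 6 lists was 48.8 kb (48.1 to 49.5), with quartiles of 13.9 and 159 kb. The nearest interval was an H3K4me1 island for 34.5% of the regions, an H3K27me3 island for 29.3%, a Pax6 peak for 17.4%, an H3K4me3 peak for 13.2%, an H3K27ac peak for 5.0% and an RNA polymerase II peak for 0.578%. By list, the median distance was 133 kb to H3K4me1, 178 kb to H3K27me3, 204 kb to H3K4me3, 246 kb to H3K27ac, 289 kb to Pax6 and 971 kb to RNA polymerase II. The region farthest from any lens interval lay at chr7:22688057-22688396, 2.16 Mb from an H3K27me3 island. The next at this end were chr7:9165362-9165755 (1.91 Mb) and chr7:9104951-9105305 (1.85 Mb).

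To see how far these distances follow from where the lists lie, the unmarked regions were moved along their chromosomes by 20 to 5000 kb in both directions (16 moves). Of the moved positions, 94.7% also overlapped no lens list, and these served for comparison. Their median distance to the nearest lens interval was 49.2 kb, close to the 48.8 kb of the regions themselves. The regions differed from the moved positions in the nearest kilobase. Within 500 bp of a lens interval lay 2.85% of unmarked regions and 1.44% of moved positions. This excess was found beside lens RNA polymerase II peaks (0.128% of unmarked regions and 0.0177% of moved positions, 7.24 times), H3K27ac peaks (0.836% and 0.162%, 5.15 times) and H3K4me3 peaks (0.961% and 0.224%, 4.29 times). It was smaller beside H3K27me3 islands (1.54 times) and H3K4me1 islands (1.49 times). Beside Pax6 peaks 0.0888% of unmarked regions and 0.0852% of moved positions lay within 500 bp (1.04 times). Between 2 and 20 kb from an H3K27me3 island, the share of unmarked regions was 0.867 to 0.918 times that of moved positions.

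**Figure D3:**
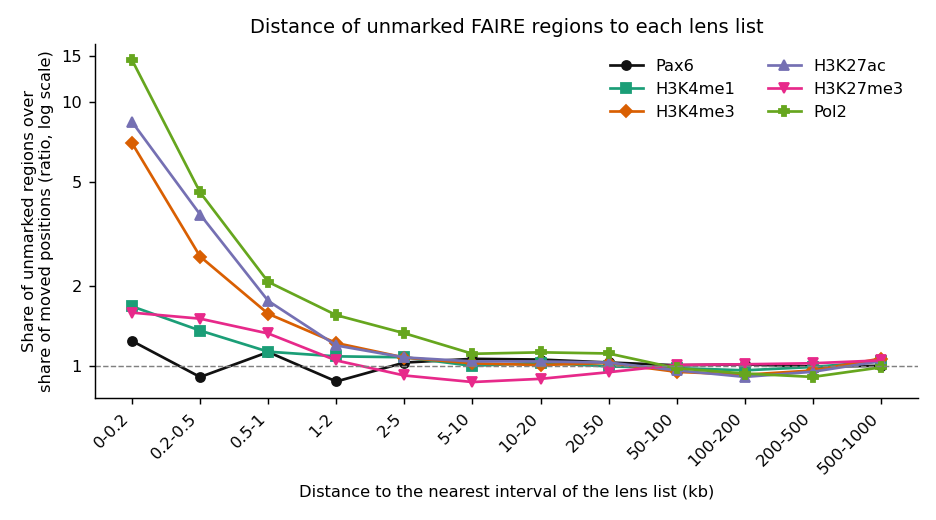
Share of unmarked regions in each class of distance to the nearest interval of a lens list, divided by the share of moved positions outside the lens lists (y axis, log scale; x axis, distance in kb; 1 line per lens list). Lines for RNA polymerase II, H3K27ac and H3K4me3 start at 14.5, 8.43 and 7.00 below 0.2 kb and come near 1 beyond 2 to 5 kb, while the Pax6 line lies between 0.871 and 1.24 in the classes up to 5 kb.

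The choice of regions draws a line at 1 bp. Just on the near side of it, 818 unmarked regions (median width 231.5 bp) lay less than 100 bp from a lens interval, 352 of them beside an H3K4me3 peak, 186 beside H3K4me1 and 166 each beside H3K27ac and H3K27me3. On the other side, 1079 marked regions (median width 246 bp) had no overlap as long as 100 bp, 581 of them with an H3K4me3 peak.

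The forebrain lists played no part in the choice and show what the other tissue carried at the same positions. Of the unmarked regions, 7071 (7.56%, 7.39% to 7.73%) overlapped at least 1 forebrain list, against 14.7% of all autosomal FAIRE regions. H3K4me1 lay at 4785 unmarked regions (5.12%, 4.98% to 5.26%; 9.95% of all autosomal FAIRE regions). H3K27me3 lay at 2508 (2.68%, 2.58% to 2.79%; 4.91% of all). H3K27ac lay at 461 (0.493%, 0.449% to 0.540%; 2.99% of all). Pax6 lay at 152 (0.163%, 0.138% to 0.191%; 0.926% of all), H3K4me3 at 124 (0.133%, 0.110% to 0.158%; 2.28% of all) and RNA polymerase II at 10 (0.0107%, 0.00513% to 0.0197%; 0.327% of all). Marked regions overlapped each forebrain list more often, from 3.04% for RNA polymerase II to 51.5% for H3K4me1. Lens and forebrain lists share many sites, so removing regions at lens intervals also removed regions at forebrain intervals, and this difference from marked regions is partly built in.

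Set against moved positions, the forebrain overlap of unmarked regions was higher or lower depending on which positions were counted. Against all moved positions, only Pax6 was more frequent at unmarked regions (0.163% and 0.0788%, 2.06 times, interval 1.75 to 2.42). This direction turned when gaps of up to 1 kb counted as overlap, with lens and forebrain lists alike (0.876 times, 0.774 to 0.988). That setting left 89432 regions, none within 1 kb of a lens interval, while moved positions could lie there. With overlap of 1 bp, the shares of the other lists were lower at unmarked regions. They were at 0.968 times for H3K4me1 (0.942 to 0.995), 0.629 times for H3K27ac (0.573 to 0.689) and 0.597 times for H3K27me3 (0.574 to 0.620). RNA polymerase II was at 0.293 times (0.141 to 0.539) and H3K4me3 at 0.258 times (0.215 to 0.308). The H3K4me1 ratio turned to 1.03 with moves of 20 to 100 kb alone and to 1.06 when 0.5 of the shorter interval had to be shared. Moved positions may however fall on lens intervals, which the unmarked regions by choice do not. Against moved positions that also lay outside all lens lists, 5 of the 6 lists were more frequent at unmarked regions. Pax6 was at 5.39 times (0.163% and 0.0302%, interval 4.57 to 6.32), H3K4me3 at 6.47 times (5.38 to 7.71), H3K27ac at 2.39 times (2.18 to 2.62) and H3K4me1 at 1.44 times (1.41 to 1.49). RNA polymerase II was at 7.97 times (3.82 to 14.7), from 10 unmarked regions and 19 of 1416131 moved positions. Of the unmarked regions at forebrain H3K4me3, 115 of 124 lay within 1 kb of a lens interval, as did 7 of the 10 at RNA polymerase II. For H3K27me3 the ratio was 1.02 (0.984 to 1.06), an interval that includes 1. Its moved share grew from 2.26% at moves of 20 kb to 3.24% at 5000 kb, on either side of the 2.68% of unmarked regions. The ratio of 1.02 thus depends on which moves are averaged. In all later ratios the moved positions lie outside the lens lists.

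**Figure D4:**
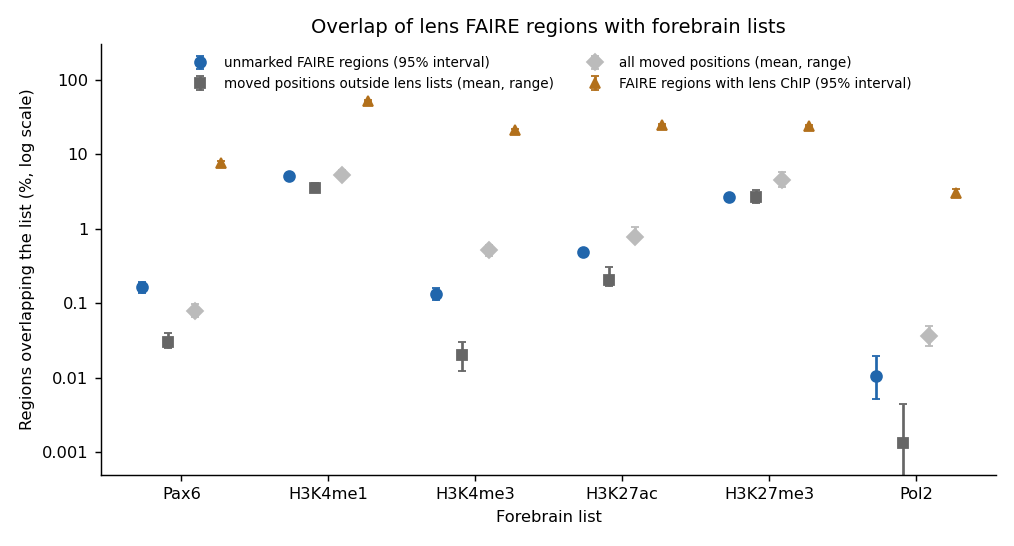
Percent of regions that overlap each forebrain list (log scale), for unmarked regions (blue circles, exact 95% interval), moved positions outside the lens lists (dark squares, mean and range of 16 moves), all moved positions (light diamonds, mean and range) and marked regions (brown triangles, exact 95% interval). Unmarked regions lie above the dark squares for 5 lists. For H3K27me3 they lie near the mean of the moves (2.68% and 2.62%) and within their range (2.24% to 3.27%). The lower whisker for RNA polymerase II reaches 0 and is cut by the axis.

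The background was not uniform along the chromosome. At positions moved by 20 kb, 8.06% overlapped a forebrain list, and at positions moved by 5000 kb 11.0% did. For H3K27me3 these shares were 3.69% and 5.76%, and for H3K4me1 4.90% and 6.18%. Unmarked regions thus lay in surroundings with fewer forebrain intervals than the chromosome at large.

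The forebrain intervals at unmarked regions differed in how close the same mark lay in lens. Of the 124 unmarked regions at forebrain H3K4me3, 111 (89.5%) lay within 1 kb of a lens H3K4me3 peak, at a median of 42 bp. Nearly all of them thus lay beside a peak of the same mark in lens. At the 461 regions with forebrain H3K27ac, lens H3K27ac lay within 1 kb of 175 (38.0%), with a median distance of 9.05 kb. At the 4785 regions with forebrain H3K4me1 it was 462 (9.66%), with a median of 30.4 kb, and at the 2508 regions with forebrain H3K27me3 437 (17.4%), with a median of 22.2 kb. At the 152 regions with forebrain Pax6, a lens Pax6 peak lay within 1 kb of 3 (1.97%), and the median distance was 199 kb. Unmarked regions without the forebrain mark lay farther from the same mark in lens, at medians of 289.5 kb for Pax6, 143.8 kb for H3K4me1, 184.2 kb for H3K27me3, 248.9 kb for H3K27ac and 204.7 kb for H3K4me3.

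Forebrain Pax6 and H3K4me1 were more frequent at unmarked regions than at moved positions in every class of distance to a lens interval. For forebrain Pax6 the ratio was 4.13 (2.41 to 6.61) within 1 kb of a lens interval and 3.76 (2.54 to 5.37) at 100 kb or more, from 17 and 30 regions. Between these it was 9.10 at 1 to 5 kb, 6.32 at 5 to 20 kb and 5.16 at 20 to 100 kb, from 23, 35 and 47 regions. For H3K4me1 the 5 ratios lay between 1.29 and 1.39, and each interval lay above 1. For H3K27ac the ratio was 2.85 within 1 kb, 2.10 and 2.11 in the next 2 classes, 1.31 (1.02 to 1.66) at 20 to 100 kb and 0.773 (0.386 to 1.38) at 100 kb or more, where 11 regions overlapped it. For H3K27me3 the ratio was 0.912 (0.852 to 0.974) within 1 kb, 0.881 (0.816 to 0.949) at 1 to 5 kb and had an interval that included 1 in the 3 classes beyond. Forebrain H3K4me3 was at 4.38 times (3.62 to 5.24) within 1 kb, from 115 regions. Its ratio was 6.43 (2.09 to 14.99) at 1 to 5 kb and 7.95 (0.201 to 44.3) at 5 to 20 kb, from 5 and 1 regions. It was 2.19 (0.266 to 7.92) at 20 to 100 kb and 1.17 (0.0296 to 6.50) at 100 kb or more, from 2 and 1 regions. RNA polymerase II was met by 7 regions within 1 kb and by 3 at 5 to 20 kb. The shares themselves fell steeply with distance in both regions and moved positions. Forebrain H3K4me1 lay at 29.9% of the 4072 unmarked regions within 1 kb of a lens interval and at 1.54% of the 32286 at 100 kb or more.

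**Figure D5:**
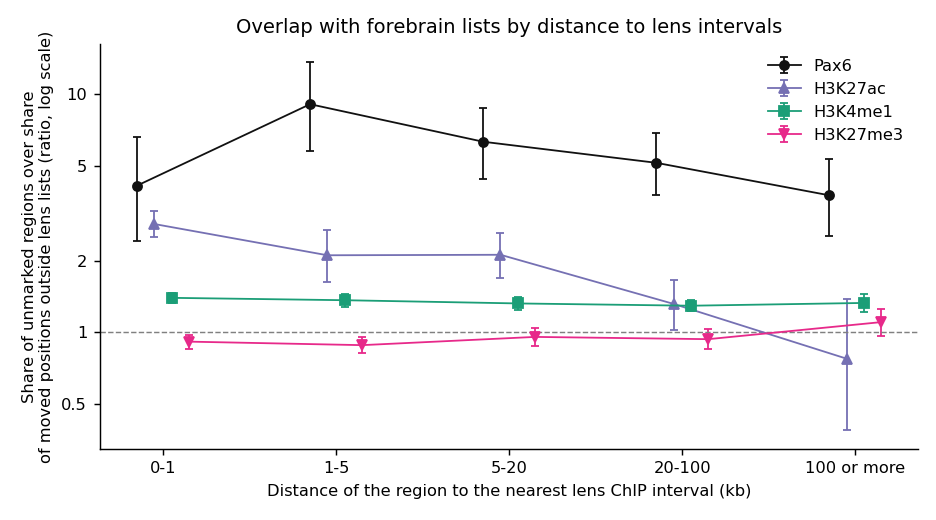
Share of unmarked regions that overlap a forebrain list divided by the share of moved positions outside the lens lists (y axis, log scale), by distance to the nearest lens ChIP interval (x axis, kb). Points are ratios with 95% intervals for the counting error of unmarked regions alone, the moved share being taken as fixed. Pax6 stays above 3 and H3K4me1 near 1.3 in every class, while H3K27ac declines from 2.85 to 0.773.

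Wider unmarked regions met forebrain Pax6 more often and forebrain H3K27me3 less often. A wider interval meets a list more readily, and the part of length in these shares was not tested. In the narrowest quartile of unmarked regions (132 to 165 bp) 0.0808% overlapped a forebrain Pax6 peak (0.0487% to 0.126%), and in the widest (480 to 4562 bp) 0.231% (0.174% to 0.302%). For forebrain H3K4me1 the shares were 4.84% (4.57% to 5.12%) and 5.16% (4.88% to 5.45%), and for H3K27ac 0.387% (0.312% to 0.475%) and 0.557% (0.466% to 0.661%). For H3K27me3 the shares were 2.94% (2.73% to 3.16%) in the narrowest and 2.18% (1.99% to 2.37%) in the widest quartile.

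At most unmarked regions with a forebrain interval only 1 list was met. H3K4me1 alone lay at 3956 and H3K27me3 alone at 2020, and 86435 (92.4%) met no forebrain list. The enhancer pair H3K4me1 and H3K27ac, with no other list, was found at 223 regions, and H3K27ac alone at 147. H3K4me1 with H3K27me3 was found at 406. H3K27me3 lay at 469 of the 4785 unmarked regions with forebrain H3K4me1 (9.80%), and H3K27ac at 286 (5.98%). Over all 10389 autosomal FAIRE regions with forebrain H3K4me1 these shares were 16.7% and 19.2%. That set includes the marked regions, so the lower shares at unmarked regions are partly built in. Among forebrain H3K4me1 islands without a lens list, 17.98% of the 2759 at an unmarked region (16.6% to 19.5%) overlapped forebrain H3K27ac. Of the other 14621, 17.68% did (17.1% to 18.3%). The shares for H3K27me3 were 12.6% (11.4% to 13.9%) and 11.2% (10.7% to 11.7%), and in both cases the intervals overlapped. The part of island width was not tested. Of the 152 unmarked regions with forebrain Pax6, 104 also lay in forebrain H3K4me1 (68.4%, 60.4% to 75.7%), 42 in H3K27me3 (27.6%, 20.7% to 35.5%) and 15 in H3K27ac (9.87%, 5.63% to 15.8%), and 38 met no other forebrain list. Over all 967 autosomal FAIRE regions with forebrain Pax6 the shares were 77.5% for H3K4me1, 32.0% for H3K27me3 and 24.6% for H3K27ac. Among forebrain Pax6 peaks without a lens list, 68.7% of the 150 at an unmarked region (60.6% to 76.0%) and 54.2% of the other 973 (51.0% to 57.3%) overlapped forebrain H3K4me1. For H3K27me3 these shares were 24.7% (18.001% to 32.4%) and 19.9% (17.5% to 22.6%), and the intervals overlapped. Those for H3K27ac were 9.33% (5.197% to 15.2%) and 8.74% (7.04% to 10.7%), again with overlapping intervals. The Pax6 peaks at an unmarked region were also wider (median 268.5 bp against 225 bp), and the part of peak width in these shares was not tested.

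The summit of the forebrain Pax6 peak lay inside the unmarked region in 116 of 153 overlapping pairs (75.8%, 68.2% to 82.4%), with a median of 104.5 bp between summit and region centre. The summit lay inside in 106 of 472 pairs for H3K27ac (22.5%, 18.8% to 26.5%), in 12 pairs for H3K4me3 (9.60%, 5.06% to 16.2%) and in 2 of 10 for RNA polymerase II. These shares cannot be ranked between lists, since the peaks differ in width (median 253 bp for forebrain Pax6, 527 bp for H3K27ac and 737 bp for H3K4me3). At H3K4me3 the choice itself left mostly regions beside lens peaks of the same mark.

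Seen from the forebrain, 1123 of 3485 autosomal Pax6 peaks (32.2%) overlapped no lens ChIP list, and 150 of these (13.4%, 11.4% to 15.5%) overlapped an unmarked region. When these peaks were themselves moved, to positions outside the lens lists, 2.52% did so, a ratio of 5.31 (4.54 to 6.15). Fold enrichment, the authors' value for each peak, had a median of 6.42 (5.67 to 6.93) at these 150 peaks and 6.34 (6.22 to 6.46) at the other peaks without a lens list, and the intervals overlapped. By quartile of fold enrichment, low to high, 16.01% (11.9% to 20.8%), 10.3% (7.02% to 14.5%), 8.57% (5.57% to 12.49%) and 18.5% (14.1% to 23.5%) of these Pax6 peaks met an unmarked region, with no single direction. Of the 17380 forebrain H3K4me1 islands without a lens list, 2759 (15.9%, 15.3% to 16.4%) held an unmarked region, 1.25 times the share of the moved islands (1.21 to 1.29). These were the weaker islands, with a median ratio of ChIP over control reads of 2.30 (2.27 to 2.33) against 2.69 (2.67 to 2.71) at islands without one. An unmarked region lay in 27.4% of islands in the lowest quartile of this ratio and in 7.30% of those in the highest. They were also wider (median 3400 bp against 2800 bp) and held more control reads per kb (median 23.5 against 20.8), and the part of width and control reads in this order was not tested. For H3K27ac the order ran the other way, with an unmarked region at 2.27% of the lowest and 9.22% of the highest quartile by fold enrichment, over 6337 peaks without a lens list. The H3K27ac peaks at an unmarked region were also wider (median 458 bp against 404 bp), and the part of width was not tested. For H3K27me3 these shares were 8.05% and 22.8%, over 7252 islands without a lens list. Those at an unmarked region were wider (median 5400 bp against 3800 bp) and held fewer control reads per kb (median 6.59 against 7.37). The part of width and control reads in this order was not tested. In all, 13.8% of these H3K27me3 islands met an unmarked region and 14.9% of the same islands moved did, a ratio of 0.922 (0.870 to 0.977).

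A few positions show the extremes of each forebrain list. Each fold enrichment or ratio is that of the whole forebrain interval, which an unmarked region may meet only at its end. The highest fold enrichment of forebrain Pax6 at an unmarked region, 19.7, was found at chr17:64157305-64157464, a region of 160 bp inside forebrain H3K4me1 and 41.2 kb from the nearest lens interval. At chr15:52536944-52537288 (345 bp) the Pax6 fold enrichment was also 19.7, within forebrain H3K27me3 and 6.58 kb from a lens H3K4me3 peak. At chr3:66840553-66840849 (297 bp) it was 17.98, again within forebrain H3K27me3, and the nearest lens interval was a Pax6 peak 14.7 kb away.

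For H3K4me1 the highest ratio of ChIP over control was 10.6, at chr2:31950972-31951137, in an island with 62 ChIP and 10 control reads that also had forebrain H3K27ac, 187 bp from a lens H3K27ac peak. The next were chr11:90110264-90110426 (6.85, with forebrain H3K27ac, 379 bp from a lens H3K4me3 peak) and chr7:35557782-35558043 (5.99, no other forebrain list, 19.96 kb from a lens H3K27me3 island).

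The 3 highest forebrain H3K27ac peaks at unmarked regions all lay within 1 kb of lens H3K27ac. They were at chr13:99696907-99697503 (fold enrichment 40.8, 25 bp from the lens peak), chr4:154974475-154974851 (34.9, 35 bp) and chr7:7253683-7253827 (31.3, 876 bp). The same held for H3K4me3, with chr9:107671626-107672019 (31.3, 139 bp from a lens H3K4me3 peak), chr17:35973231-35973368 (31.1, 141 bp) and chr9:14305836-14305984 (24.5, 19 bp).

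The highest forebrain H3K27me3 ratio, 116.9, came from an island of 400 bp with 40 ChIP and 0 control reads at chr3:96190419-96190947. The next were in long islands, chr9:24588743-24589653 in one of 25.4 kb (ratio 28.9, 142 bp from a lens H3K27me3 island) and chr3:86367871-86368189 in one of 52.2 kb (27.6). For RNA polymerase II the highest were chr13:23661410-23662024 (fold enrichment 23.1, 640 bp from a lens H3K27ac peak) and chr13:22136027-22136281 (22.4, 26 bp from a lens H3K4me1 island). Both were also in forebrain H3K4me1. The third was chr4:116883019-116883608 (21.8), 7.62 kb from a lens RNA polymerase II peak. Genes at these positions were not analysed here.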

How the data were processed

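The notes on processing name MACS2, SICER and the build mm9 for the ChIP libraries and MACS2 and mm9 for FAIRE, without versions or roles. By the format of the deposited files, Pax6, H3K4me3, H3K27ac and RNA polymerase II are MACS2 peaks and H3K4me1 and H3K27me3 SICER islands. Aligner, control libraries, depth and the handling of the 2 forebrain Pax6 libraries were not found in the labels. The deposited peak lists give a fold enrichment (a ratio over control) and a −log10 q-value per peak. The deposited island tables give raw counts of ChIP and control reads, their scaled ratio and the authors' FDR (an adjusted p-value). Their names state 200 bp windows, 600 bp gaps and a limit of 0.001 on the FDR. The FAIRE list gives no score.

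Members and lists were chosen with earlier results of these data known. Intervals were overlapped at 1 bp, autosomes only. Overlap and distance code gave the same values as bedtools 2.31.1 for 12 of 12 lists. Moves of 20, 50, 100, 200, 500, 1000, 2000 and 5000 kb in both directions were wrapped at the largest listed end of each chromosome and ignore assembly gaps. Named positions are, for each forebrain list, the 3 unmarked regions at the strongest forebrain interval, the 3 widest, the 3 farthest from a lens interval and the 3 fullest 100 kb windows. Shares have exact Clopper-Pearson 95% intervals and medians order-statistic intervals. The limits of a ratio are those of the share, divided by the mean moved share. Counting error and spread of the moved positions are thus left out. Reads are not independent molecules, and all these intervals cover counting error only. Alternatives were sharing 0.5 of the shorter interval, 1 kb gaps, stricter lists, merged regions, the X chromosome and other moves. Sharing 0.5 and 1 kb gaps were applied both to the choice of unmarked regions and to their forebrain overlap. Distance classes, width quartiles and the view from forebrain intervals were added after seeing the data. RNA-seq and sequence were not used here.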

Additional observations from a re-analysis of the deposited data

Results flagged for a closer look

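The X chromosome, which the comparisons above leave out, held 3293 lens FAIRE regions. Of these, 3058 (92.9%, exact 95% interval 91.9% to 93.7%) overlapped no lens ChIP list, in data outside the main measurement. This share lay within the range of single autosomes, from 82.2% on chromosome 11 to 93.2% on chromosome 16 (89.6% of all autosomal regions). The 3058 X regions numbered 18.3 per Mb, below every autosome, with a median width of 254 bp. Forebrain H3K27me3 lay at 171 of them (5.59%, 4.80% to 6.47%), against 9.54% of all X regions and 2.68% of unmarked autosomal regions. H3K4me1 lay at 17 (0.556%, 0.324% to 0.889%), against 1.06% of all X regions and 5.12% of unmarked autosomal regions. H3K4me3 lay at 8 (0.262%; 1.03% of all X regions), H3K27ac at 4 (0.131%; 1.09%) and Pax6 at 2 (0.0654%; 0.213%). RNA polymerase II lay at 0, with an exact 95% upper limit of 0.1206%, against 0.1215% of all X regions. The differences between X and autosomes were not tested. On the Y chromosome 55 of 57 FAIRE regions overlapped no lens list.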

How the results depend on the processing

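The number of unmarked regions stayed within 1.5 times under every alternative (89432 with 1 kb gaps to 96564 with the X chromosome). Over all results and alternatives, 44 values lay within the 95% interval of the reported one (within 1.5 times for the number of regions), 16 lay outside it and 8 ratios passed to the other side of 1. The background decided most: with moved positions outside lens lists the ratios reversed for H3K4me1 (1.44), H3K4me3 (6.47), H3K27ac (2.39) and RNA polymerase II (7.97), that for H3K27me3 came to 1.02 with an interval that includes 1, and Pax6 moved to 5.39, because positions on lens intervals no longer count. The H3K4me1 ratio also reversed with moves of 20 to 100 kb (1.03) and where 0.5 of the shorter interval had to be shared (1.06), and was 0.998 with stricter lens lists, so it has no firm side of 1 against all moved positions. With 1 kb gaps Pax6 reversed (0.876) and the ratios were 0.757 for H3K4me1, 0.0390 for H3K4me3, 0.419 for H3K27ac and 0.0643 for RNA polymerase II. With 0.5 shared, Pax6 was at 2.84 and RNA polymerase II at 0.779. H3K27me3 was at 0.685 with moves of 20 to 100 kb. The median distance to a lens interval was 47109.5 bp with 0.5 shared, 53799 bp with 1 kb gaps, 52872 bp with stricter lens lists and 49798.5 bp with the X chromosome. Merged regions had a median width of 272 bp and a gap of 6782 bp, and with the X chromosome the gap was 6148 bp. Where no cause is given, the cause was not tested. No paired analysis was possible because each group entered as 1 list. The FAIRE list holds no score or depth, so its weak regions could not be separated.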
